A study of Mus musculus with 8 samples.

Results

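HIF pathway and glycolysis genes were followed in white fat from female mice of the C57BL/6J strain that received endostatin or its vehicle. The set holds 39 genes of 37046 features in the deposited tables and was given as a list of names. It comprises 9 regulators of the hypoxia-inducible factors (HIF), 12 HIF target genes and 18 glycolytic enzymes. All 39 names were found, and 37 passed the filter on low counts, while Ankrd37 and Aldoc did not. The series asks what a single dose of endostatin, a fragment of collagen XVIII that is known to inhibit blood vessel growth, does to gene expression in this fat.

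The endostatin group was 4 libraries from wild-type mice dosed at 50 mg/kg into the tail vein, and the control group was 4 libraries from wild-type mice given phosphate-buffered saline (PBS). Tissue was taken 2 h after the injection in both groups, by day and with food withdrawn in between, and 2 libraries of each group belong to each of 2 batches in the labels. The labels' description of endostatin 4 repeats the read file name given for endostatin 3, which leaves a doubt about the identity of endostatin 4; the deposited values of these libraries differ. The age of the mice is not given in the sources used here, and the labels do not tie libraries to animals, so p-values measure the spread between these libraries, which may be technical in part. Total estimated counts were 17197721 to 23786594 in the endostatin libraries and 15826783 to 19221886 in the control libraries.

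HIF is a dimer of an oxygen-labile subunit (encoded by Hif1a, Epas1 or Hif3a) and the stable partner encoded by Arnt. In the presence of oxygen, prolyl hydroxylases of the Egln family mark the labile subunit for destruction through the ubiquitin ligase component Vhl, and Hif1an hydroxylates it at another residue that blocks its activity. When oxygen falls, HIF binds a short core motif in its target genes, many of which encode glucose transporters and enzymes of glycolysis, the pathway that turns glucose into pyruvate and lactate. In fat, glycolysis also feeds the synthesis of fatty acids and of the glycerol backbone of triglycerides.

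The libraries differed in transcripts from outside fat, and these values are given here because they recur beside the results. Adipocyte markers (10 genes) summed to 56250 to 65400 TPM (Salmon's abundance per transcript length) in the endostatin libraries and to 37710 to 77950 TPM in the control libraries, with control 3 the lowest. Oviduct and uterus markers (12 genes, none at 0 over the 8 libraries) reached a sum of 1161 TPM in endostatin 4 and of 1063 TPM in control 3, while every other library lay between 20.1 and 64.4 TPM. Skeletal muscle markers (14 genes, none at 0 over the 8 libraries) summed to 64.5 to 117.9 TPM in the endostatin libraries, and to 280.6, 43.6, 68.5 and 534.4 TPM in control 1 to 4. The labels call the tissue epididymal although the mice are female; 8 of 10 epididymis and testis markers had less than 1 count over all libraries.

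The promoters of 4 genes are shown because the results turn on them: Adm and Pfkp had the smallest p-values between the groups among the targets and the enzymes, and Egln3 and Ankrd37 stood highest in 1 endostatin library (chosen after their values were seen). Their identifiers are ENSMUSG00000030790 for Adm, ENSMUSG00000021196 for Pfkp, ENSMUSG00000035105 for Egln3 and ENSMUSG00000050914 for Ankrd37. Each sequence is the 250 bases before the RefSeq transcription start in build GRCm38.p6, on the strand of the gene, and capitals mark ACGTG or GCGTG, the core of the HIF binding motif, on either strand (CACGT or CACGC where the match lies on the opposite strand). Overlapping matches run together.
Adm promoter, chr7:110627407-110627656, plus strand: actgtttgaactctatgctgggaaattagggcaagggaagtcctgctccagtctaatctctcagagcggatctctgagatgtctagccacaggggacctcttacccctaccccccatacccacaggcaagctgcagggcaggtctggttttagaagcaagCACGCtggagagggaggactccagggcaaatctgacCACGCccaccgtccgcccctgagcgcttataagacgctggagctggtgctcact
Egln3 promoter, chr12:54203875-54204124, minus strand: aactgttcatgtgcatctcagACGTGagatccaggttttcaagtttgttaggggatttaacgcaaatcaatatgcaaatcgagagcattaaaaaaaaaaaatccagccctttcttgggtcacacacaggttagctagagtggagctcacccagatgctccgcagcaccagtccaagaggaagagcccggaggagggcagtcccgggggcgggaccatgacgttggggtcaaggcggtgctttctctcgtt
Ankrd37 promoter, chr8:45999851-46000100, minus strand: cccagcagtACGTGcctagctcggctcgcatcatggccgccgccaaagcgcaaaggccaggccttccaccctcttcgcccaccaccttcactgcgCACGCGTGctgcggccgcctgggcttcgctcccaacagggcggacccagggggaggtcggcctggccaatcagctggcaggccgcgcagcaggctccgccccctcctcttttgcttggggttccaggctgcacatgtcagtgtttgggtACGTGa
Pfkp promoter, chr13:6648772-6649021, minus strand: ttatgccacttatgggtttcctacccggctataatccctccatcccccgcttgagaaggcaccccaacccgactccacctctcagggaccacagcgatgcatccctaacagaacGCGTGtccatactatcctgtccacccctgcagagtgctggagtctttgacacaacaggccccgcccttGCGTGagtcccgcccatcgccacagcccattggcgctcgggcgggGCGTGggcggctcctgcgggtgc

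These windows held 2 matches in Adm, 1 in Egln3, 4 in Ankrd37 and 3 in Pfkp. The bases just after the start were found near the opening of a GENCODE M21 transcript of the same gene for Ankrd37 and Pfkp. For Adm and Egln3 they were not, so the place of these windows is less certain. RefSeq promoters were found for 36 genes of the set; Epas1, Bnip3l and Ndrg1 had no entry. At least 1 match was present in 42 of 53 promoters of the set (79.2%), against 12679 of 32851 promoters of all genes (38.6%). The share was 77.8% for promoters of HIF regulators, 78.6% for those of HIF targets and 80% for those of glycolytic enzymes. A match is a description of these letters and not evidence of binding, and the base composition of the promoters was not matched.

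Between endostatin and PBS, no gene of the set passed the threshold, an adjusted p of 0.05. A quasi-likelihood test in edgeR with batch as a term called 0 of 37 tested genes, beside 0 of 15184 genes overall (0%), and DESeq2 and limma-voom also called 0 of the 37. At an unadjusted p under 0.05 there were 2 genes, Adm and Pfkp (5.41%), beside 3.19% of all genes tested (2.3% higher and 0.896% lower), and both had higher levels after endostatin. In 0 of 37 genes did the 4 endostatin libraries lie wholly above or below the 4 control libraries in CPM (counts scaled to library size with TMM factors), beside 1.64% of all genes tested (0.942% with endostatin higher and 0.698% with it lower). The 95% intervals of the log2 fold change reached 0.45 to either side at the median over the 37 genes, with extremes of 0.19 and 1.37, so that changes of this size could not be detected for many of them.

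**Figure D1:**
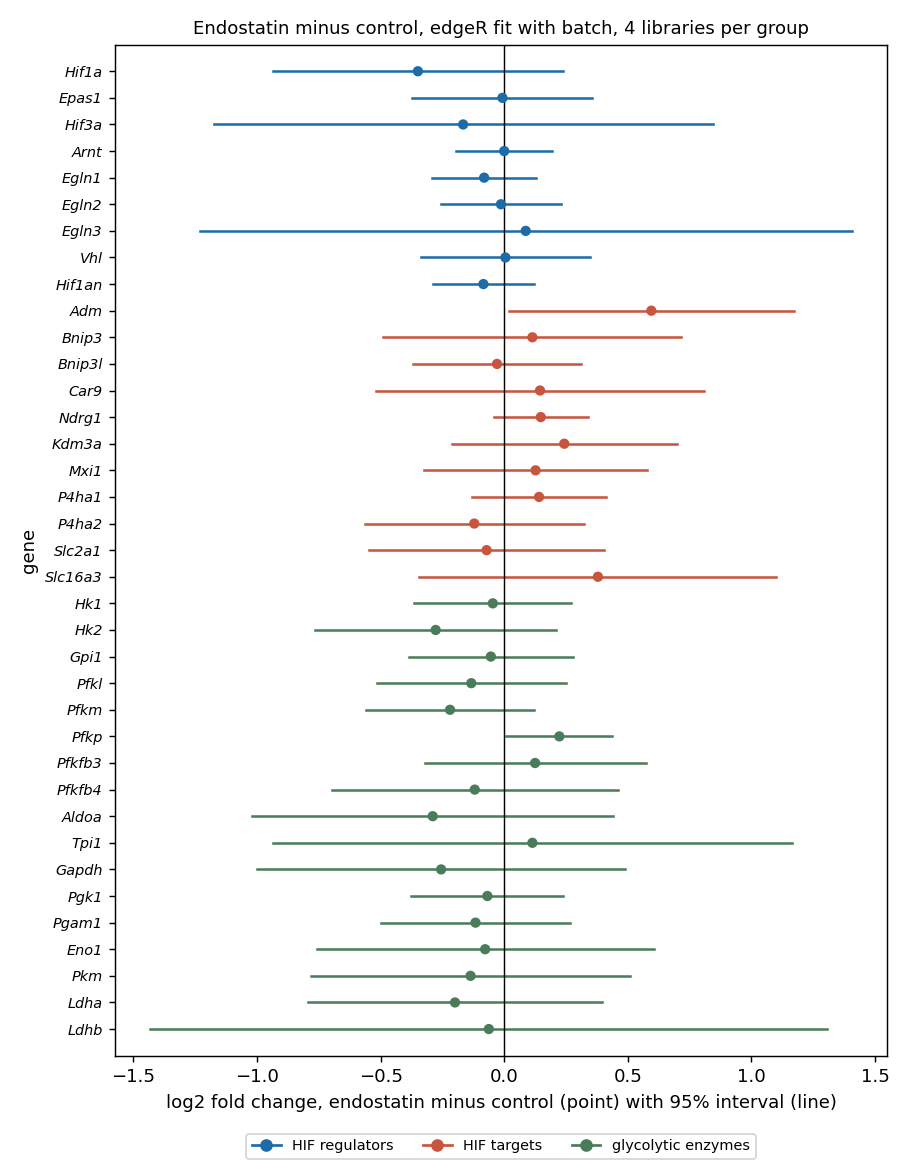
Log2 fold change (endostatin minus control, horizontal axis) for the 37 tested genes, with points for the edgeR estimate and lines for its 95% interval; colours mark the 3 gene groups. The intervals of Adm and Pfkp alone leave out 0, and neither gene passed the adjusted threshold.

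Among the HIF subunits, Epas1 stood highest per length, at 188 to 258 TPM over the 8 libraries, followed by Arnt at 50.6 to 63.2 TPM, Hif1a at 29.0 to 83.9 TPM and Hif3a at 1.72 to 10.2 TPM. The ranges of Arnt and Hif1a overlapped, and that of Hif1a rested on control 3 at its upper end. Hif1a had 93.4, 71.1, 75.1 and 66.7 CPM in endostatin 1 to 4, against 86.6, 78.0, 156.4 and 73.5 CPM in control 1 to 4. Control 3 was thus the high library, and the other 7 lay close together. The log2 fold change of Hif1a was -0.35 ± 0.25 (SE, endostatin minus control; edgeR unadjusted p = 0.206, adjusted p = 1.00), with 0.00 in batch 1 and -0.70 in batch 2. It was -0.04 without control 3 and 0.01 without both control 3 and endostatin 4. Control 3 was also the library with the lowest adipocyte markers and with raised oviduct and uterus markers, whose part in the Hif1a value was not tested; in bulk tissue, fewer cells of a type and less RNA per cell cannot be told apart.

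Epas1, the subunit abundant in endothelium and fat, had 661.8, 815.0, 630.9 and 636.1 CPM in endostatin 1 to 4, against 814.7, 744.1, 489.0 and 723.5 CPM in control 1 to 4. The groups overlapped, control 3 was the lowest library, and the log2 fold change was -0.01 ± 0.16 with a 95% interval from -0.37 to 0.36. Arnt varied least of the subunits, with 98.0, 94.9, 91.7 and 98.7 CPM in endostatin 1 to 4, against 105.3, 107.6, 88.1 and 84.4 CPM in control 1 to 4. Its log2 fold change was 0.00 ± 0.09, from -0.20 to 0.20. Hif3a, whose splice forms can restrain the other subunits, had 4.27, 9.21, 18.6 and 12.0 CPM in endostatin 1 to 4, against 14.3, 4.20, 9.79 and 18.4 CPM in control 1 to 4. It ranged over 4.43-fold with no order between the groups (log2 fold change -0.17 ± 0.44).

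Of the oxygen sensors, Egln2 stood at 69.8 to 94.7 TPM, Egln1 at 34.6 to 59.6 TPM and Egln3 at 4.59 to 23.3 TPM, ranges that did not overlap. Egln3, itself a well known HIF target, had 6.89, 9.08, 6.57 and 32.4 CPM in endostatin 1 to 4, against 12.0, 15.9, 6.86 and 13.1 CPM in control 1 to 4. Endostatin 4 alone was high, endostatin 1 and 3 lay close to the lowest control library, and endostatin 2 lay within the control range. The log2 fold change was accordingly 0.09 ± 0.57, with -0.80 in batch 1 and 0.97 in batch 2. It turned to -0.73 without endostatin 4 (unadjusted p = 0.0289, adjusted p = 1.00) and to -0.87 without both endostatin 4 and control 3 (unadjusted p = 0.00186, adjusted p = 0.471), by edgeR's test in the remaining libraries. Since endostatin 4 was the high library of Egln3, a fall without it was fixed in advance, and these p-values give no support to a change. Over all genes, edgeR gave an unadjusted p under 0.05 to 485 genes with every library kept. There were 408 such genes without endostatin 4 and 1089 without both endostatin 4 and control 3. The adjusted p of Egln3 lay between 0.471 and 1.00 over all 20 alternatives.

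Egln1, the main oxygen sensor, had 79.3, 79.2, 79.9 and 90.0 CPM in endostatin 1 to 4 and 76.3, 78.5, 105.0 and 89.5 CPM in control 1 to 4, a log2 fold change of -0.08 ± 0.09. Vhl had 20.9, 22.7, 32.2 and 23.7 CPM in endostatin 1 to 4, against 27.9, 22.5, 23.2 and 24.8 CPM in control 1 to 4, with endostatin 3 the high library and a log2 fold change of 0.01 ± 0.15. Hif1an had 52.1, 54.6, 52.7 and 64.0 CPM in endostatin 1 to 4, against 52.0, 57.7, 65.6 and 61.9 CPM in control 1 to 4, a log2 fold change of -0.08 ± 0.09. Over the 9 regulators, 2 log2 fold changes were positive (22.2%, beside 46.6% of all genes tested) and 7 negative. Their median was -0.01, beside -0.01 for all genes tested. The median was 0.01 when counts were scaled by library size only and 0.08 without control 1 and control 4, and the sign was shared by both batches in 2 of 9 genes.

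**Figure D2:**
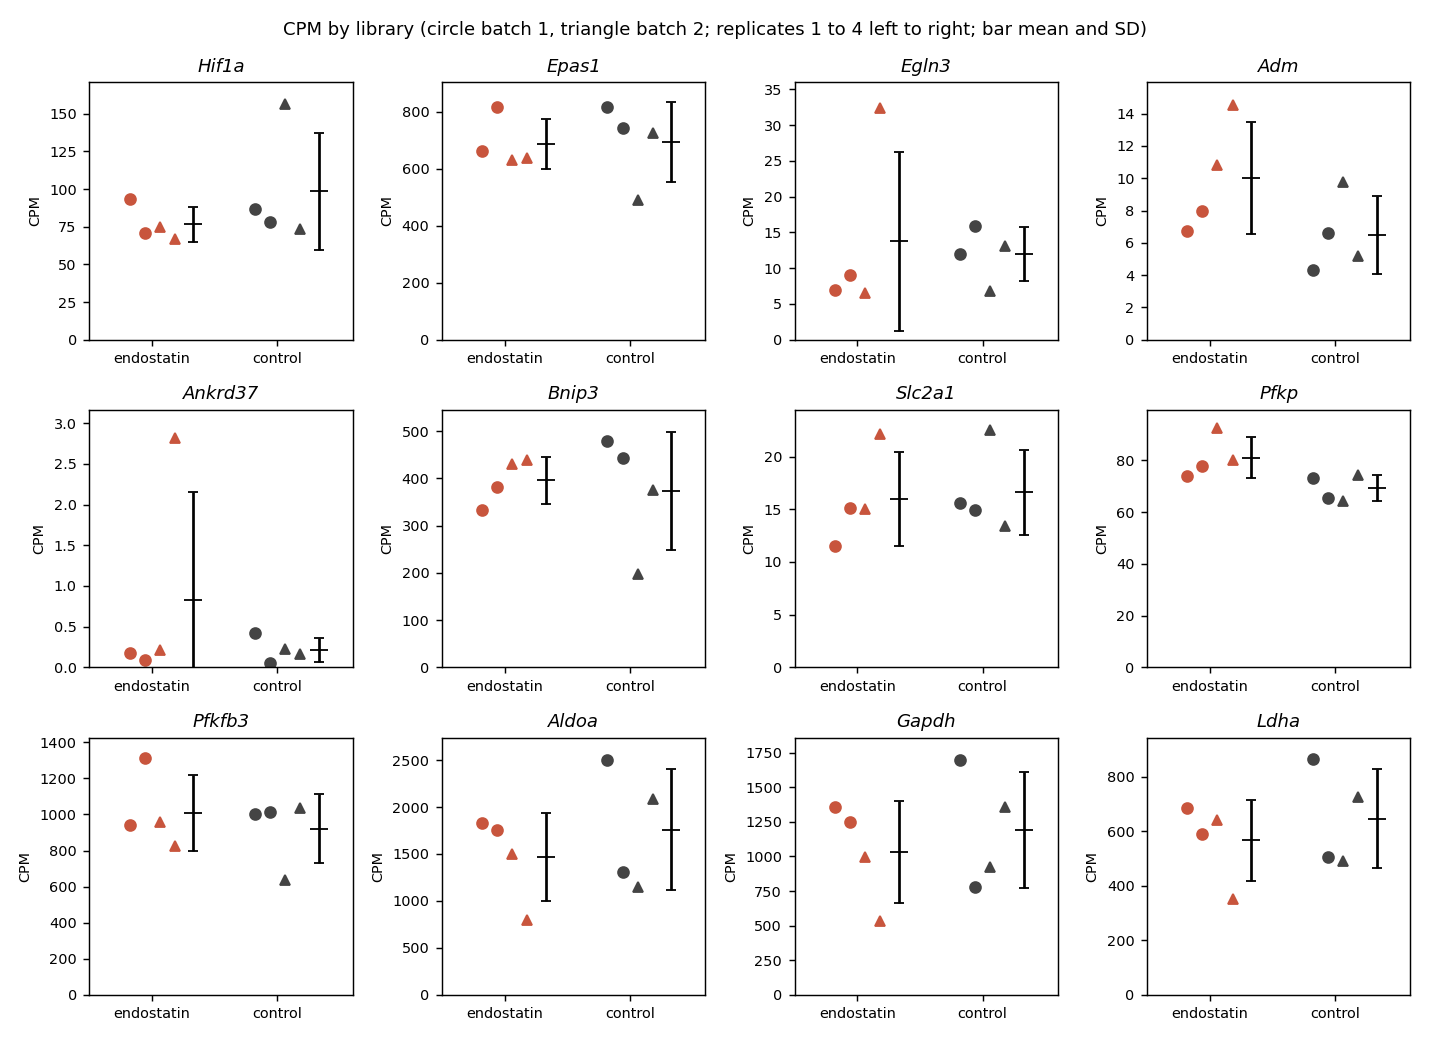
CPM (vertical axes, from 0) of 12 genes in each library, endostatin to the left of control, with circles for batch 1, triangles for batch 2 and a bar for the mean and SD of 4 libraries (the bar is clipped at 0 for Ankrd37). Endostatin 4 lies apart at the top in Egln3 and Ankrd37 and at the bottom in Aldoa, Gapdh and Ldha, and control 3 lies apart at the top in Hif1a and at the bottom in Pfkfb3.

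The HIF targets with the highest levels per length were Bnip3, at 369 to 729 TPM, and Bnip3l, at 188 to 271 TPM, which both encode receptors for the removal of mitochondria by autophagy. Bnip3 had 332.5, 381.9, 429.6 and 438.9 CPM in endostatin 1 to 4, against 479.3, 443.2, 197.8 and 376.0 CPM in control 1 to 4. The groups overlapped, with control 3 the lowest library, and the log2 fold change was 0.11 ± 0.26, with -0.37 in batch 1 and 0.60 in batch 2. Bnip3l had a log2 fold change of -0.03 ± 0.15.

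Adm, which encodes the vasodilator peptide adrenomedullin, had 6.72, 7.999, 10.8 and 14.5 CPM in endostatin 1 to 4, against 4.35, 6.59, 9.79 and 5.21 CPM in control 1 to 4. The groups overlapped through control 3, and in each batch the mean was higher after endostatin. The log2 fold change was 0.60 ± 0.25 (edgeR unadjusted p = 0.0447, adjusted p = 1.00; 95% interval 0.02 to 1.17), with 0.43 in batch 1 and 0.76 in batch 2. Its sign was positive in 20 of 20 alternatives, but it was 0.41 without control 4 and 0.27 without both control 1 and control 4, the libraries with raised muscle markers (unadjusted p = 0.240). Adm also had a higher level in batch 2 than in batch 1, by 0.62 on the log2 scale (edgeR unadjusted p = 0.0378). Macrophage markers (11 genes, 10 with a positive log2 fold change, beside 46.6% of all genes tested) summed to 1188, 1258, 2049 and 2120 TPM in endostatin 1 to 4, against 946.6, 1410, 1088 and 1161 TPM in control 1 to 4. They were highest in endostatin 3 and 4, where Adm was highest in CPM. In TPM, Adm was highest in endostatin 4 (27.95), followed by control 3 (18.37) and endostatin 3 (15.89), and the markers were not raised in control 3. The part of these markers in the Adm value was not tested.

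Ankrd37, a small HIF-induced ankyrin repeat gene, did not reach the count filter and has no test. It had 0.169, 0.0899, 0.214 and 2.82 CPM in endostatin 1 to 4, against 0.417, 0.0583, 0.221 and 0.164 CPM in control 1 to 4, or 52 counts in endostatin 4. Only endostatin 4 was above 0.42 CPM among the 8 libraries, and a count of 0 would allow up to 0.126 to 0.19 CPM in a single library, from counting error only. Slc16a3, the lactate exporter, was likewise highest in endostatin 4, with 1.69, 1.39, 3.42 and 4.93 CPM in endostatin 1 to 4, against 1.31, 2.04, 2.60 and 2.03 CPM in control 1 to 4 (log2 fold change 0.38 ± 0.31, but -0.08 with transcript length offsets). Of the 12 targets, 6 had their highest CPM in endostatin 4, and 2 each in control 1 and control 3. The share of all genes with their highest CPM in each library was not computed, so these counts are not a result about the targets. Over all genes tested, endostatin 4 (48.8) and control 3 (71.5) stood apart on the first principal component (33.7% of the variance). The other libraries lay between -34.0 and -6.6 on it. Endostatin 4 had raised oviduct and uterus markers (1161 TPM), as had control 3 (1063 TPM), where Ankrd37 stood at 0.221 CPM and Egln3 at 6.86 CPM; the part of these markers in the values of endostatin 4 was not tested.

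Ndrg1, a stress-responsive gene, had 106.2, 124.8, 119.0 and 124.4 CPM in endostatin 1 to 4, against 106.5, 104.2, 114.6 and 102.8 CPM in control 1 to 4. The groups overlapped through endostatin 1 alone, and the log2 fold change was 0.15 ± 0.08 (unadjusted p = 0.112), or -0.05 with transcript length offsets. Slc2a1, the basal glucose transporter, had 11.6, 15.1, 15.1 and 22.2 CPM in endostatin 1 to 4, against 15.6, 14.9, 22.5 and 13.4 CPM in control 1 to 4. Endostatin 4 and control 3 were the high libraries in their groups, and the log2 fold change was -0.07 ± 0.21. The collagen prolyl hydroxylase P4ha2 had 24.0, 25.8, 32.96 and 21.3 CPM in endostatin 1 to 4, against 25.8, 19.95, 40.0 and 29.8 CPM in control 1 to 4, a log2 fold change of -0.12 ± 0.19. Its partner enzyme P4ha1 had 0.14 ± 0.12, the histone demethylase Kdm3a 0.24 ± 0.20, the Myc antagonist Mxi1 0.13 ± 0.20 and the carbonic anhydrase Car9, at 12 to 20 counts a library, 0.15 ± 0.29.

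Over the 11 tested targets, 8 log2 fold changes were positive and 3 negative, with a median of 0.14 beside -0.01 for all genes tested, of which 46.6% were positive. Batch 1 gave a median of 0.02 and batch 2 one of 0.26, with a shared sign in 5 of 11 genes. Without endostatin 4 the median was 0.04, still with 8 of 11 positive, and with transcript length offsets it was 0.01, with 6 of 11 positive. Medians of several marker lists were also higher in batch 2. Fibroblast and progenitor markers (10 of 10 with a positive log2 fold change) had a median of -0.04 in batch 1 and 0.57 in batch 2. Macrophage markers (10 of 11 positive) had one of 0.00 in batch 1 and 0.81 in batch 2. The median went likewise from -0.44 to 0.52 for erythroid, 1.80 to 6.01 for hepatocyte and -0.23 to 0.10 for adipocyte markers. For endothelial markers it was -0.002 and 0.049. It fell for skeletal muscle (-1.36 to -4.065), oviduct and uterus (0.68 to -1.91) and brown and beige fat markers (-0.575 to -1.53). Fibroblast and progenitor markers summed to 2961 to 5413 TPM in the endostatin libraries, highest in endostatin 4, and to 2493 to 3949 TPM in the control libraries. The part of any of these lists in the target values was not tested.

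**Figure D3:**
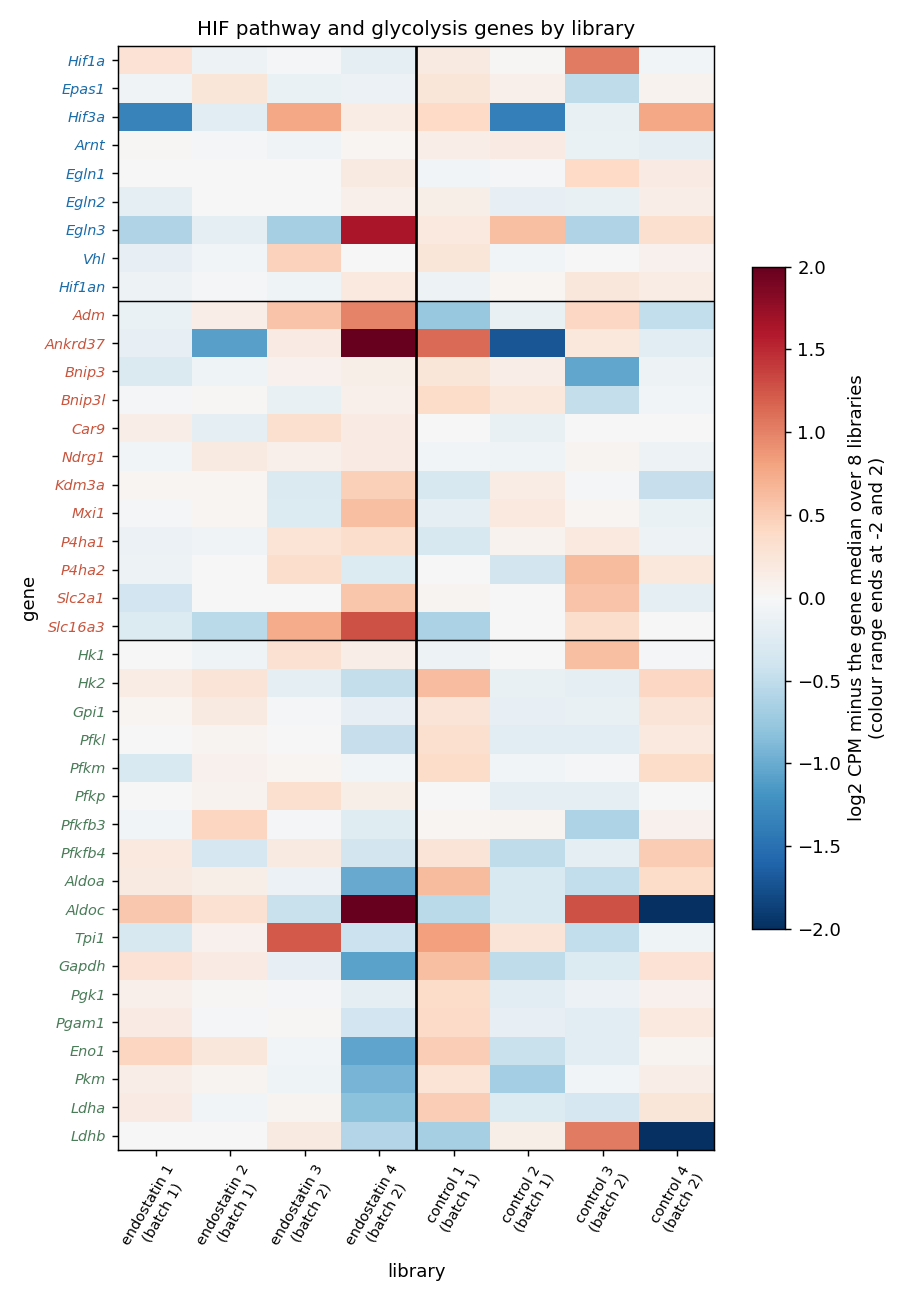
Log2 CPM of each of the 39 genes (rows, coloured by gene group) minus its median over the 8 libraries (columns, endostatin left of control); red is above and blue below the median, and the colour range ends at -2 and 2. Endostatin 4 is red over Egln3, Adm, Ankrd37 and Slc16a3 and blue over Aldoa, Gapdh, Eno1, Pkm and Ldha, while control 1 is red over most glycolytic enzymes.

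Glycolytic enzymes held the highest levels of the set. Aldoa (aldolase) stood at 1332 to 3437 TPM, Gapdh at 1083 to 2603 TPM, Ldha (lactate dehydrogenase) at 461 to 1001 TPM, Eno1 (enolase) at 346 to 909 TPM and Pkm (pyruvate kinase) at 259 to 526 TPM. At each step with several genes, 1 gene led in all 8 libraries: Hk2 at 54.0 to 95.2 TPM over Hk1 at 21.4 to 49.2 TPM, and Pfkl at 67.4 to 107.0 TPM over Pfkp at 34.7 to 56.7 TPM and Pfkm at 15.2 to 23.1 TPM. Pfkfb3, which makes the sugar bisphosphate that activates phosphofructokinase, stood at 455 to 774 TPM, and its relative Pfkfb4 at 6.74 to 12.2 TPM. Aldoc, the brain form of aldolase, was below the count filter, at 0.178 to 3.23 TPM, with its highest value in endostatin 4.

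The levels of Tpi1 (17.2 to 41.7 TPM) and Ldhb (0.801 to 8.06 TPM) may be incomplete. The deposited tables list a transcript without a match in the annotation used here between transcripts of Tpi1, at 204.1 to 475.4 TPM, and another between transcripts of Ldhb, at 10.9 to 87.4 TPM. Their genes are not given by that annotation, so they were not added, and the fold changes of Tpi1 (0.11 ± 0.45) and Ldhb (-0.06 ± 0.59) cover the matched transcripts only. Aldoa has a further entry under the same symbol, at 0.174 to 1.3 TPM, which was left out.

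**Figure D4:**
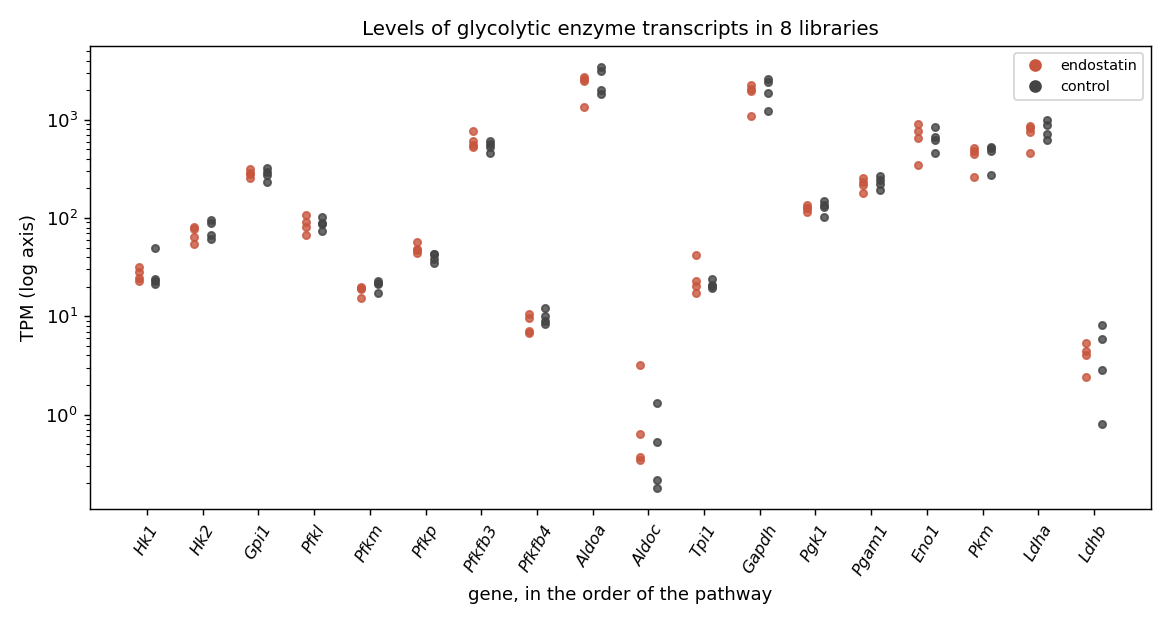
TPM (vertical log axis) of the 18 glycolytic enzymes in the order of the pathway, with the 4 endostatin libraries to the left of the 4 control libraries for each gene. Aldoa and Gapdh lie above 1000 TPM in every library and Aldoc below 4 TPM. The groups overlap in every gene except Pfkp, whose 4 endostatin libraries lie above its 4 control libraries on this scale. In CPM the groups overlap for Pfkp too, and the share of all genes without overlap in TPM was not computed.

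Pfkp, the platelet form of phosphofructokinase, the committing step of glycolysis, was the enzyme with the smallest p. It had 74.1, 77.9, 92.4 and 80.0 CPM in endostatin 1 to 4, against 73.3, 65.4, 64.4 and 74.2 CPM in control 1 to 4. The groups overlapped in CPM by a narrow margin, between endostatin 1 and control 4. In TPM they did not overlap, with 43.9, 46.9, 56.7 and 48.6 TPM in endostatin 1 to 4, against 38.6, 34.7, 43.0 and 42.95 TPM in control 1 to 4. The share of all genes without overlap in TPM was not computed. The log2 fold change was 0.22 ± 0.09 (edgeR unadjusted p = 0.0435, adjusted p = 1.00; 95% interval 0.01 to 0.44), with 0.13 in batch 1 and 0.32 in batch 2. It was positive in 20 of 20 alternatives, from 0.15 without control 3 to 0.32 without both control 1 and control 4. Its sister genes had log2 fold changes of the other sign, -0.13 ± 0.17 for Pfkl and -0.22 ± 0.15 for Pfkm, both of which turned positive without control 1 and control 4 (0.13 for Pfkl and 0.01 for Pfkm).

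Pfkm, the form abundant in muscle, had 23.6, 30.9, 29.9 and 28.1 CPM in endostatin 1 to 4, against 37.3, 27.9, 28.3 and 37.5 CPM in control 1 to 4. The high libraries were control 1 and control 4, those with raised skeletal muscle markers. Hk2, the insulin-responsive hexokinase, had 229.7, 246.8, 182.0 and 149.7 CPM in endostatin 1 to 4, against 319.4, 187.2, 180.7 and 277.6 CPM in control 1 to 4. Control 1 and control 4 were again highest, and the log2 fold change was -0.28 ± 0.21, or 0.11 without them. Pfkfb3 had 940.1, 1312, 956.1 and 824.8 CPM in endostatin 1 to 4, against 1003, 1015, 635.1 and 1035 CPM in control 1 to 4, with control 3 low and a log2 fold change of 0.13 ± 0.19.

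Gapdh, Aldoa, Pkm and Ldha are abundant enzymes of the lower pathway. Gapdh had 1359, 1246, 994.0 and 532.7 CPM in endostatin 1 to 4, against 1696, 782.5, 925.4 and 1358 CPM in control 1 to 4. Aldoa had 1833, 1752, 1496 and 802.3 CPM in endostatin 1 to 4, against 2500, 1307, 1145 and 2086 CPM in control 1 to 4. In both genes control 1 was the highest library and endostatin 4 the lowest, and the groups overlapped.

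Pkm had 602.0, 570.5, 520.7 and 288.8 CPM in endostatin 1 to 4, against 664.7, 345.3, 532.8 and 602.5 CPM in control 1 to 4, a log2 fold change of -0.14 ± 0.28. Ldha, which turns pyruvate into lactate, had 686.6, 589.7, 641.0 and 350.0 CPM in endostatin 1 to 4, against 865.1, 506.9, 489.5 and 725.4 CPM in control 1 to 4, a log2 fold change of -0.20 ± 0.26. These extremes were shared by part of the group: of the 18 enzymes, 9 had their highest CPM in control 1 and 3 in control 4, and 8 had their lowest in endostatin 4. The share of all genes with their extremes in these libraries was not computed, so these counts are not a result about the enzymes. Gapdh (log2 fold change -0.26 ± 0.32) and Aldoa (-0.29 ± 0.32) ranged over 3.18-fold and 3.12-fold between libraries, against 1.34-fold for Gpi1 and 1.5-fold for Pgk1 in the same pathway.

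The makeup of transcripts within a gene was given by Salmon's estimates as a share of the gene's TPM, and no share was tested. Of 64 transcripts (the 2 most abundant of each gene with at least 2 transcripts at a mean of 1 TPM or more), 7 had group means that differed by more than the SD of either group, counted on rounded shares. Of these, Eno1-202 lay at the limit, with 87.1% in the endostatin group and 89.5% in the control group (control SD 2.4). The share over all transcripts was not computed, so this count is not a result about these genes. The genes named next were chosen after their values were seen. Egln2-201 held 76.0% ± 1.5 in the endostatin group and 72.7% ± 2.0 in the control group (SD, n = 4 each), and Ldha-202 held 94.4% ± 0.90 in the endostatin group and 93.0% ± 1.1 in the control group, 2 of these 7, although the libraries of the groups overlapped. The leading transcript of Pkm, Pkm-201, held 73.9% ± 1.0 in the endostatin group and 74.6% ± 0.9 in the control group, while Pkm itself ranged over 2.30-fold. Gapdh-203 differed by batch, with 43.2% and 41.0% in the batch 2 endostatin libraries against 56.0% and 56.8% in the batch 2 control libraries, and with 64.8% and 62.4% in the batch 1 endostatin libraries against 62.4% and 69.5% in the batch 1 control libraries. Aldoa-201 held 61.7% and 60.9% in the batch 2 endostatin libraries against 69.6% and 66.3% in the batch 2 control libraries, and 71.7% to 74.4% in batch 1. In batch 2 both transcripts thus had lower shares in each endostatin library than in each control library.

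Over the 17 tested enzymes, 3 log2 fold changes were positive (17.6%, beside 46.6% of all genes tested) and 14 negative. Their median was -0.12, beside -0.01 for all genes tested. Batch 1 gave a median of 0.00 and batch 2 one of -0.21, with a shared sign in 9 of 17 genes. Without Tpi1 and Ldhb, whose levels may be incomplete, 2 of 15 were positive and the median was also -0.12. The median over the enzymes tested in each fit was -0.01 without endostatin 4 and also -0.01 without control 1. Without both control 1 and control 4 it turned to 0.17, with 16 of 18 genes positive, beside a median of 0.000 for all genes. The positive share of all genes in that fit was not computed. In that fit Aldoc passed the filter as well, so the genes were not the same 17. Control 1 held the highest CPM in 9 of the 18 enzymes and control 4 in 3. Leaving both out was therefore bound to raise the fold changes of these enzymes. In every other fit the median stayed negative, so the change of direction rested on this 1 removal. Markers of skeletal muscle, a tissue rich in these enzymes, were highest in control 1 and control 4 (280.6 and 534.4 TPM in sum); their part in the enzyme values was not tested.

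**Figure D5:**
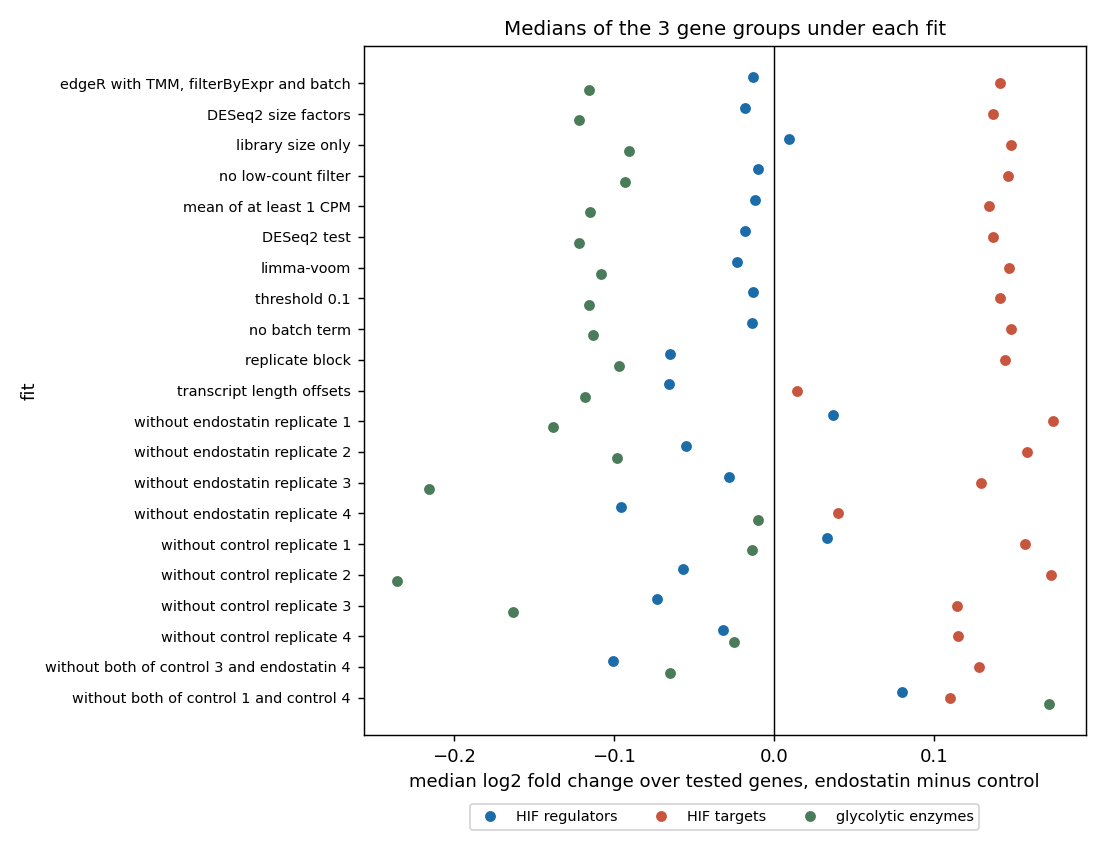
Median log2 fold change (endostatin minus control, horizontal axis) of the 3 gene groups in the edgeR fit with batch (top) and under 20 other fits. The targets stay between 0.01 and 0.17, and the glycolytic enzymes between -0.24 and -0.01 except for 0.17 without both control 1 and control 4. Each median covers the genes that passed the filter in that fit, so the genes can differ between fits.

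Genes of the same pathways outside the set gave 0 calls between the groups in edgeR's test as well, beside 0% of all genes. Of 26 other HIF pathway genes, all tested, 15 log2 fold changes were positive and 11 negative (median 0.06). The positive share was 57.7%, beside 46.6% of all genes tested. In edgeR's test 1 had an unadjusted p under 0.05 (3.85%, beside 3.19% of all genes tested). That gene was Tfrc, the transferrin receptor for iron uptake, with 34.0, 42.2, 17.0 and 17.9 CPM in endostatin 1 to 4, against 53.0, 39.8, 24.8 and 44.1 CPM in control 1 to 4 (log2 fold change -0.63 ± 0.23, unadjusted p = 0.0251). Its level was also lower in batch 2 than in batch 1 (log2 fold change -0.78). The angiogenic factor Vegfa had 201.8, 284.4, 266.9 and 221.4 CPM in endostatin 1 to 4, against 212.2, 228.9, 153.3 and 200.7 CPM in control 1 to 4 (log2 fold change 0.30 ± 0.16). The groups overlapped, and control 3 was the low library. Pdk1, which diverts pyruvate from oxidation, had 68.5, 85.4, 56.2 and 47.0 CPM in endostatin 1 to 4, against 113.4, 64.4, 49.5 and 82.0 CPM in control 1 to 4 (log2 fold change -0.28 ± 0.22). The chemokine receptor Cxcr4 had 7.27, 8.09, 12.3 and 13.8 CPM in endostatin 1 to 4, against 8.81, 4.32, 9.12 and 9.98 CPM in control 1 to 4 (log2 fold change 0.34 ± 0.22), and its level was high in endostatin 3 and 4. Pfkfb2, a relative of Pfkfb3 that stands in both lists, had 19.8, 19.7, 16.6 and 18.5 CPM in endostatin 1 to 4, against 20.5, 21.7, 22.8 and 20.9 CPM in control 1 to 4. Its 4 endostatin libraries lay below its 4 control libraries by a narrow margin, as in 0.698% of all genes tested (log2 fold change -0.21 ± 0.10, edgeR unadjusted p = 0.0712).

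Of 28 other glycolysis genes, 21 were tested, 6 with positive and 15 with negative log2 fold changes (median -0.18). The positive share was 28.6%, beside 46.6% of all genes tested. In edgeR's test 2 had an unadjusted p under 0.05 (9.52%, beside 3.19% of all genes tested). Ldhd, a mitochondrial D-lactate dehydrogenase, had 37.8, 43.3, 42.4 and 45.0 CPM in endostatin 1 to 4, against 49.9, 64.0, 44.8 and 70.1 CPM in control 1 to 4 (log2 fold change -0.44 ± 0.15, unadjusted p = 0.0202), and only endostatin 4 exceeded the lowest control library. Slc2a3, the glucose transporter of neurons and blood cells, had 8.84, 13.5, 23.1 and 22.6 CPM in endostatin 1 to 4, against 19.4, 13.2, 72.7 and 23.1 CPM in control 1 to 4 (log2 fold change -0.81 ± 0.35, unadjusted p = 0.0494). Control 3 alone was high. Fbp1, an enzyme of glucose synthesis in liver, had 1.65, 2.92, 0 and 6.72 CPM in endostatin 1 to 4, against 1.13, 0.292, 0 and 0 CPM in control 1 to 4, and was highest in endostatin 4. Alb (albumin), made by hepatocytes, was also highest in endostatin 4 and lowest in control 3, with 208.3, 282.2, 18.3 and 500.9 CPM in endostatin 1 to 4, against 104.8, 57.9, 9.45 and 20.7 CPM in control 1 to 4. Of 14 hepatocyte markers 13 had a positive log2 fold change, beside 46.6% of all genes tested. Their median was 3.62, with 1.80 in batch 1 and 6.01 in batch 2. In edgeR's test 9 of the 14 were higher after endostatin at an unadjusted p under 0.05, beside 2.3% of all genes, and 0 passed the adjusted threshold. Their summed TPM, in which abundant markers weigh most, did not follow Alb. It was 2767, 3616, 3387 and 6080 TPM in endostatin 1 to 4, against 3963, 5893, 1928 and 4252 TPM in control 1 to 4. Without the marker Hp, control 2 was highest, at 5345 TPM against 5012 TPM in endostatin 4. The part of hepatocyte transcripts in the Fbp1 values was not tested.

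Between the batches, 0 of the 37 genes passed the threshold in edgeR's test, beside 0.0395% of all genes tested (0.00659% higher and 0.0329% lower in batch 2), and DESeq2 and limma-voom called 0 of them too. At an unadjusted p under 0.05 there were 5 genes (13.5%), all with a higher level in batch 2, beside 9.96% of all genes tested (5.42% higher and 4.54% lower). The log2 fold changes of batch 2 over batch 1 were 0.96 for Slc16a3, 0.62 for Adm, 0.29 for P4ha1, 0.22 for Egln1 and 0.32 for Hk1, the ubiquitous hexokinase. Their unadjusted p-values in edgeR's test lay between 0.0162 for Slc16a3 and 0.0496 for Hk1. The effect of endostatin did not pass a test of difference between the batches in any of the 37 genes: edgeR's interaction test called 0 at the adjusted threshold, beside 0% of all genes, and 0 at an unadjusted p under 0.05, beside 3.47% of all genes (2.19% higher and 1.28% lower). Of the 37 interaction estimates, 19 were positive, beside 47.8% of all genes. The largest interaction estimates were 1.77 for Egln3 (edgeR unadjusted p = 0.111) and 1.58 for Tpi1 (edgeR unadjusted p = 0.0689), which covers its matched transcripts only. The sign within batches was shared in 16 of 37 genes (43.2%), beside 47.7% of all genes tested.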

How the data were processed

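Ribosomal RNA was removed and directional libraries were prepared from the remaining RNA, per the labels' protocols. The deposited tables hold estimated counts per transcript from Salmon on the GRCm39 build, per the submitters' processing notes. Which Salmon version and index were used is not given in the sources used here. Deposited TPM are the authors' Salmon abundances per transcript length. Of 115620 transcripts, 113710 (98.35%) matched GENCODE M21 without the version suffix; the 1910 others, 0.576% to 0.732% of TPM per library, stayed in the tables under their own IDs. M21 and the RefSeq promoters belong to GRCm38, and no coordinate was carried between builds.

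Estimated counts were summed per gene, rounded, filtered with filterByExpr, scaled by TMM and fitted with edgeR 4.0.16 (R 4.3.3) by quasi-likelihood with batch and treatment, or their interaction. All p-values are two-sided, and adjusted ones follow Benjamini-Hochberg over 15184 genes. Levels are CPM or TPM per library, and errors of fold changes are SE. Reads shared by near-identical sequences are split by estimation, so genes with close copies (Gapdh, Pgam1, Eno1, Ldha) are uncertain. The fit was tested on simulated counts. Alternatives used DESeq2 1.42.0, limma 3.58.1, other scalings, filters, offsets and covariates, and left out libraries.

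The genes, lists, rules and alternatives were chosen with earlier results of these data known. Values in every library are given for the 2 genes per direction and group with the smallest p, any gene with an unadjusted p under 0.05, Hif1a, Epas1, Hif3a, Arnt, Slc2a1, Ldha and Pkm, and outside the set up to 2 genes per direction and list with Vegfa and Pdk1. Egln1, Bnip3, Ankrd37, Slc16a3, Gapdh, Aldoa and Alb were shown in every library after their values were seen. A gene that the rule names outside the set is not reported here.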

Additional observations from a re-analysis of the deposited data

Results flagged for a closer look

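Of 78 sets of 4 libraries (39 genes in 2 groups), 10 held 1 library far from the other 3. The rule flags about 1 in 20 where values are independent and normal, but these 39 genes share the same libraries. The share over all genes was not computed, so the count is not a result about this set. In 5 of them the library was endostatin 4, whose description in the labels repeats the read file name of endostatin 3. Ankrd37 was at 2.82 CPM there, against 0.0899 to 0.214 CPM in the other endostatin libraries, Egln3 at 32.4 CPM against 6.57 to 9.08 CPM, Aldoc at 3.20 CPM against 0.321 to 0.634 CPM, and Egln1 at 90.0 CPM against 79.2 to 79.9 CPM. Pfkl was the gene that was low in endostatin 4, at 104.4 CPM against 142.7 to 149.5 CPM. In 3 sets the library was control 3, with Hif1a at 156.4 CPM against 73.5 to 86.6 CPM in the other control libraries, Hk1 at 76.7 CPM against 46.8 to 50.6 CPM, and Pfkfb3 at 635.1 CPM against 1003 to 1035 CPM. Epas1 was high in endostatin 2, at 815.0 CPM against 630.9 to 661.8 CPM. Car9 was low in control 2, at 0.700 CPM against 0.767 to 0.774 CPM, a gap of few counts.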

How the results depend on the processing

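No gene of the set was called in any of the 20 alternatives for endostatin minus control, nor, where it was fitted, for batch or interaction; the smallest adjusted p was 0.471, for Egln3 without both control 3 and endostatin 4. Of 37 log2 fold changes, 32 changed sign in at least 1 alternative, all of a size up to 0.38, and those of Egln1, Hif1an, Adm, Kdm3a and Pfkp in none. The median of HIF regulators (-0.01) was -0.10 without both control 3 and endostatin 4, 0.08 without both control 1 and control 4, and -0.096 to 0.037 when 1 library was left out. The median of glycolytic enzymes (-0.12) was 0.17 without both control 1 and control 4, where Aldoc passed the filter as well. The cause was not tested. Over all genes, endostatin minus control gave 0 calls except 4 in DESeq2, and the interaction 0 except 26 in DESeq2. The batch comparison gave 6 calls, but 171 in DESeq2, 10 in limma-voom, 2 by library size only, 11 without a low-count filter, 27 without both control 3 and endostatin 4, 0 without both control 1 and control 4, and 0 to 18 when 1 library was left out. With the replicate number as a block, 0 genes of the set and 0 of all genes were called. Same-numbered libraries deviated from their group means with correlations of 0.21, 0.14, -0.07 and -0.30. Not every library correlated best with its own number, and the highest correlation, 0.363, was between endostatin 4 and control 3. With so few libraries and batch left in, these correlations cannot tell whether the numbers pair the libraries. Genes near the count filter (Car9, Ldhb, Slc16a3) are limited by depth.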

Other observations

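Gpd1, the enzyme that draws on glycolysis for the glycerol backbone of triglycerides, followed the abundant enzymes at its ends, with 1211, 883.0, 599.0 and 190.7 CPM in endostatin 1 to 4, against 1642, 806.1, 946.8 and 1382 CPM in control 1 to 4. It was lowest in endostatin 4 and highest in control 1, and its log2 fold change of -0.89 ± 0.46 did not pass edgeR's threshold (unadjusted p = 0.0905). Slc2a4, the insulin-responsive glucose transporter of fat and muscle, had 274.1, 288.0, 250.3 and 136.0 CPM in endostatin 1 to 4, against 350.3, 258.3, 168.7 and 374.9 CPM in control 1 to 4, again lowest in endostatin 4. Ddit4, a stress and HIF response gene, was highest in endostatin 4, with 20.7, 40.4, 95.9 and 166.4 CPM in endostatin 1 to 4, against 46.7, 38.7, 53.8 and 87.6 CPM in control 1 to 4. These genes were chosen after their values were seen.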
